A study of Mus musculus with 5 samples.

Results

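The genes described here make the proteins that coat, fuse and build the lipid droplets of fat cells. They are 10 genes chosen by name, namely the 5 perilipins Plin1 to Plin5, the CIDE genes Cidea and Cidec, the assembly factors Fitm2 and Bscl2, and the lipase inhibitor gene G0s2. All 10 were found among the 78334 gene identifiers of the deposited count table, and all 10 were among the 24779 genes with enough counts to be tested. The series holds 5 RNA-seq libraries labelled as visceral fat, all from males of the inbred mouse strain C57BL/6. In the 2 resveratrol libraries, mice had first eaten a high-fat diet (60% of energy as fat) over 8 weeks, and then received the plant polyphenol resveratrol through a gastric tube daily over 28 days, at 2.25 mg/kg. In the 2 obesity libraries, the same diet was followed by vehicle alone. The single control library came from the group on standard chow, which also received vehicle. Mice were 8 weeks old when the diet began and 16 weeks old when treatment began, per the labels, and the design text puts collection after 12 weeks. Whether the high-fat diet went on during treatment, and whether each library is a separate mouse, is not given in the sources used here, so a p-value reflects only how these libraries scatter, which may be technical.

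A lipid droplet is a core of triglyceride wrapped in a single phospholipid layer that carries proteins. Droplets bud from the endoplasmic reticulum, where seipin (the product of Bscl2) and FIT2 (the product of Fitm2) act, and they grow and merge with the help of CIDE proteins, which give the white fat cell its single large droplet. Perilipins sit on the surface and control the access of lipases to the stored fat. In unstimulated adipocytes perilipin 1 holds back the lipase co-activator CGI-58, and G0S2 inhibits the lipase ATGL directly.

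Total counts ranged from 19540961 to 27026597 per library. Levels below are in CPM, counts scaled to the same TMM-adjusted total in each library, ± marks the SD of a pair of libraries, and SE is the standard error of a log2 difference. The control library had no replicate. Intervals cover counting error only. Marker genes of tissues differed between the libraries. The 12 adipocyte markers, which include none of the 10 droplet genes, summed to 4303 and 14339 CPM in resveratrol libraries 1 and 2, 12902 and 13013 CPM in obesity libraries 1 and 2, and 364 CPM in the control library. None of these markers was at a count of 0 in any library. As a share of the obesity mean, the median adipocyte marker was 24.0% in resveratrol library 1, 115% in resveratrol library 2 and 1.93% in the control library. The 12 smooth muscle markers summed to 63531 CPM in resveratrol library 1, against 1263 to 2764 CPM in the other 4 libraries. In the control library the 10 epididymis markers summed to 62532 CPM, against 3399 and 0.350 CPM in the resveratrol libraries and 22.4 and 0.238 CPM in obesity. In resveratrol library 1 a single gene, Crisp1, gave 3397 of the 3399 CPM, and the other 9 epididymis markers summed to 2.18 CPM there, against 60072 CPM in the control library. Crisp1 was thus higher there than in the control library, which had 2459.5 CPM. It was at a count of 0 in resveratrol library 2 and both obesity libraries. By these sums resveratrol library 1 held more smooth muscle than adipocyte marker RNA, and the control library more epididymis than adipocyte marker RNA, although both carry the label of visceral fat. The part of these tissue differences in the results below was not tested beyond the values given, and fewer fat cells and less RNA per fat cell cannot be told apart in bulk tissue.

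Plin1, Plin4 and Cidec, droplet genes of the mature white adipocyte, were lowest in the control library and next lowest in resveratrol library 1. Plin2, Fitm2, Bscl2 and G0s2, described below, shared this order of the lowest libraries. Plin1, which encodes the coat protein that gates hormone-driven lipolysis in fat cells, had 290 and 2488 CPM under resveratrol, against 1506 and 2460 CPM in obesity and 7.57 CPM in the control (95% exact Poisson interval 6.59 to 8.64). Plin4, a perilipin of white adipocytes found on small nascent droplets, had 890.4 and 4047 CPM under resveratrol, against 2966 and 4165 CPM in obesity and 42.3 CPM in the control. For both genes resveratrol library 1 lay below both obesity libraries, resveratrol library 2 lay near obesity library 2, and the control library lay far below all others. Cidec, the CIDE gene of white fat whose product (also called FSP27) moves lipid from smaller to larger droplets, had 527 and 4368 CPM under resveratrol, against 3745 and 4214 CPM in obesity and 23.5 CPM in the control. Here, as for Plin1, resveratrol library 2 lay above both obesity libraries and resveratrol library 1 below them. The 2 obesity libraries were closer to each other for Cidec, at a ratio of 0.889 of library 1 to library 2, than for Plin1, at 0.612.

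Plin2 had the same lowest libraries but differed in resveratrol library 2. It encodes the perilipin that coats droplets in most cell types, macrophages included. Its level was 170 and 916 CPM in the resveratrol libraries, 1731 and 1526 CPM in the obesity libraries and 10.6 CPM in the control library. Both resveratrol libraries therefore lay below both obesity libraries. In resveratrol library 2, where Plin1, Plin4 and Cidec stood at 125%, 113% and 109.8% of their obesity means, Plin2 stood at 56.3%. The 12 macrophage markers summed to 708 and 4420 CPM in resveratrol libraries 1 and 2. The obesity libraries had 4650 and 3844 CPM and control 257 CPM. In resveratrol library 2 that sum lay between the obesity libraries, but single markers went both ways. Trem2, Cd68, Adgre1 and Mrc1 lay below both obesity libraries there, as Plin2 did. Csf1r, Cd163, Lyz2, C1qa, C1qb and C1qc lay above both, and Itgam and Gpnmb between them. The part of macrophages in the Plin2 level was not tested.

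Plin3 and Plin5 had the smallest distance between control and obesity. Plin3 encodes a perilipin made in nearly all tissues that binds droplets early and otherwise stays in the cytosol. It had 104 and 101 CPM under resveratrol, against 114 and 110.2 CPM in obesity and 65.1 CPM in the control, so its highest and lowest libraries differed by 1.75-fold, the smallest range of the 10 genes, against 329-fold for Plin1. Plin5, the perilipin of oxidative tissues that links droplets to mitochondria, had 1.77 and 10.6 CPM under resveratrol, against 20.7 and 19.3 CPM in obesity and 9.69 CPM in the control. The counts behind Plin5 were 39 and 272 in the resveratrol libraries, 396 and 405 in the obesity libraries and 278 in control. Both resveratrol libraries lay below both obesity libraries, and resveratrol library 1 lay below the control library too.

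**Figure D1:**
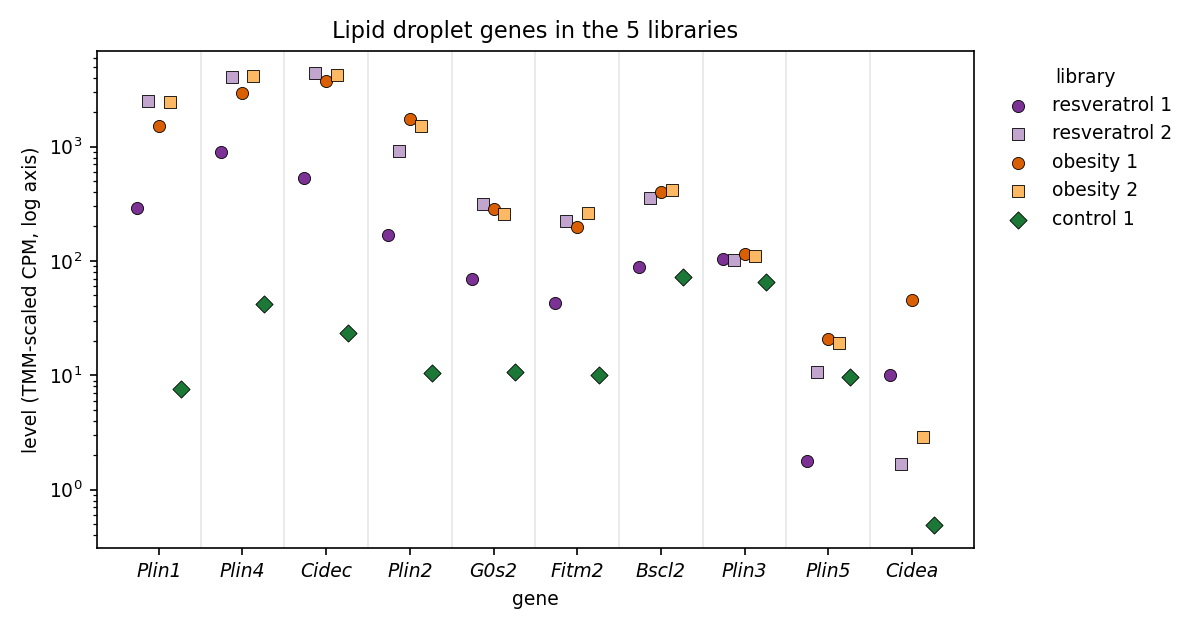
TMM-scaled CPM (log axis) of each of the 10 droplet genes, with 1 point per library and groups ordered resveratrol, obesity, control within each gene. For Plin1, Plin4 and Cidec the control point lies far below the other 4, while Plin3 lies between 65.1 and 114 CPM in all 5.

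Among the perilipins Plin1 had the widest range and Plin3 the narrowest. Relative to adipocyte markers, Plin2 and Plin5 were lower in both resveratrol libraries by more than the gap between the obesity libraries. Cidec, Fitm2 and Bscl2 were so too, as were 3 of the 12 markers. Of all tested genes 2.95% were, a share that is low in part by construction, as set out below. The promoter windows of Plin1, Plin2 and Plin3 are shown to set their sequences side by side, and the others are not. Each window holds 250 bases before and 50 bases from the annotated start and comes from RefSeq on build GRCm38.p6, whereas the counts were made on GRCm39, so no coordinate was joined to the counts. They lie at chr7:79732727-79733026 for Plin1, chr4:86670010-86670309 for Plin2 and chr17:56290462-56290761 for Plin3, all on the minus strand. Capitals mark matches, on either strand, to TATAAA (the TATA box), AGGTCA (a nuclear receptor half-site), CCAAT and GGGCGG (a GC box).
Plin1: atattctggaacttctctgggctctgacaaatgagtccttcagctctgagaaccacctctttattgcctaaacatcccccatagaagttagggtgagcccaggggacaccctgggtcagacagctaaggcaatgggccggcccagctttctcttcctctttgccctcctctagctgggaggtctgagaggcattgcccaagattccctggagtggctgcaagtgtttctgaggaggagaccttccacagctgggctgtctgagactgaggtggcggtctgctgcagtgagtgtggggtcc
Plin2: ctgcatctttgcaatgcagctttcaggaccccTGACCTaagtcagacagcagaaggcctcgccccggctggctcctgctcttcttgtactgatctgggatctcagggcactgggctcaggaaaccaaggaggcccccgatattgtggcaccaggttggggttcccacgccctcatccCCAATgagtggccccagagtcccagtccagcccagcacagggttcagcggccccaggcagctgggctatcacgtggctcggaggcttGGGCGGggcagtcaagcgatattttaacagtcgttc
Plin3: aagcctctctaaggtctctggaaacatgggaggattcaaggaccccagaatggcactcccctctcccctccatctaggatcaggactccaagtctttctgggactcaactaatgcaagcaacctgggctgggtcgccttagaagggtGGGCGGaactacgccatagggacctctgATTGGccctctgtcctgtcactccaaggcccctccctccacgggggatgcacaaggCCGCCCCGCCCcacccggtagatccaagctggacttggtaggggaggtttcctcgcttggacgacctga

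The Plin1 window held none of these 4 motifs and 2 CpG dinucleotides, against a median of 7 over the 32851 windows of the table. The Plin2 window held a half-site whose leftmost base is at -218 from the start, a CCAAT match at -73, a GC box at 15 and 10 CpG. It also held CACGTG (an E-box) at -4, which is not in capitals and which 7.15% of all windows held. The Plin3 window held GC boxes at -103, -19 and -14, of which the last 2 overlap, a CCAAT match at -75 and 9 CpG. Of all windows, 13.6% held the TATA box, 16.3% the half-site, 37.4% CCAAT and 35.7% the GC box. Windows of 9 of the 10 genes were in the table, 13 in all since some genes have several, and none of the 13 held TATAAA. These are letter matches in short windows and say nothing of binding.

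Set against gene length, the perilipin family was made up differently in the control library than elsewhere. Levels were divided by the summed exon length of each gene in GENCODE M21, which is 4.649 kb for Plin1, 3.512 kb for Plin2, 3.786 kb for Plin3, 5.777 kb for Plin4 and 2.087 kb for Plin5. On the scale of CPM per kb, Plin3 made up 9.36% and 1.75% of the summed perilipins in the resveratrol libraries, 2.20% and 1.69% in the obesity libraries and 50.9% in the control library. Plin5 made up 0.290% and 0.332% with resveratrol, 0.723% and 0.536% in obesity and 13.7% in control. The share of Plin2 was 16.5% and 17.1% in the resveratrol libraries, 36.0% and 25.2% in obesity and 8.90% in control. Shares of Plin2 and Plin5 were thus lower in both resveratrol libraries than in both obesity libraries. Plin4 shares were higher, at 52.6% and 45.8% against 37.5% and 41.8%. Shares within a library are linked, since a lower share of any gene raises the others. How common such an order is was not counted. Plin4 held the largest share in all 4 libraries of mice on the high-fat diet, from 37.5% to 52.6%. Among all 10 genes per kb, Cidec ranked first and Plin4 second in each of these 4 libraries, and in the control library Plin3 ranked first and Cidec second.

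**Figure D2:**
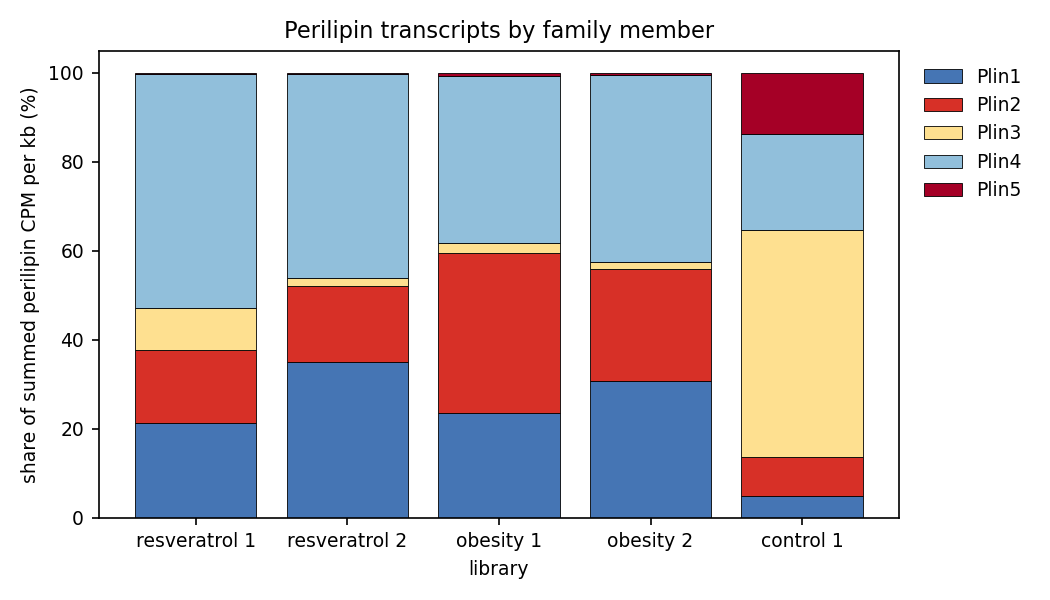
Share (%) of each perilipin in the summed perilipin CPM per kb of exon, 1 stacked bar per library, from resveratrol on the left to control on the right. Plin3 fills 50.9% of the control bar and under 10% of each other bar. The Plin2 and Plin5 shares are smaller, and the Plin4 share larger, in both resveratrol bars than in both obesity bars.

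The second CIDE gene behaved unlike the first. Cidea, best known from brown fat, had 10.1 and 1.67 CPM under resveratrol, against 45.3 and 2.90 CPM in obesity and 0.488 CPM in the control. The counts were 222 and 43 with resveratrol, 869 and 61 in obesity and 14 in control. Obesity library 1 was thus 15.6 times obesity library 2, the widest gap between obesity libraries among the 10 genes, and the groups overlapped. The brown adipocyte markers were uneven in the same libraries. Their 12 genes summed to 169 and 127 CPM in the resveratrol libraries, 348 and 188 CPM in the obesity libraries and 44.1 CPM in control. A potassium channel gene, Kcnk3, and Pank1, which makes a coenzyme A synthesis enzyme, carried most of these sums outside obesity library 1. The other 10 brown markers summed to 10.7 and 16.1 CPM under resveratrol, 207 and 23.8 CPM in obesity and 3.24 CPM in control, so obesity library 1 stood apart. The uncoupling protein gene Ucp1 was at a count of 0 in resveratrol library 1, where 3 counts correspond to 0.136 CPM, and at 0.194 CPM in resveratrol library 2, 88.6 and 0.381 CPM in obesity and 0.244 CPM in control. Fabp3, a fatty acid binding protein gene of muscle and brown fat, had 7.04 and 0.467 CPM under resveratrol, against 27.6 and 0.428 CPM in obesity and 0.244 CPM in the control, so obesity library 1 was the highest and resveratrol library 1 the next highest, as for Cidea. Zic1, a transcription factor gene of classical brown fat, was at a count of 0 in all 5 libraries. In resveratrol library 1, which held 10.1 CPM of Cidea, Ucp1, Zic1 and Lhx8 were at 0. The 6 skeletal muscle markers summed to 1085 CPM there, against 11.1 to 86.2 CPM in the other libraries, but Acta1 (810 CPM) and Ckm (255 CPM) carried that sum, while Myh4 was at 0 and Myh1 at 0.0454 CPM. Their part in the Cidea levels was not tested.

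**Figure D3:**
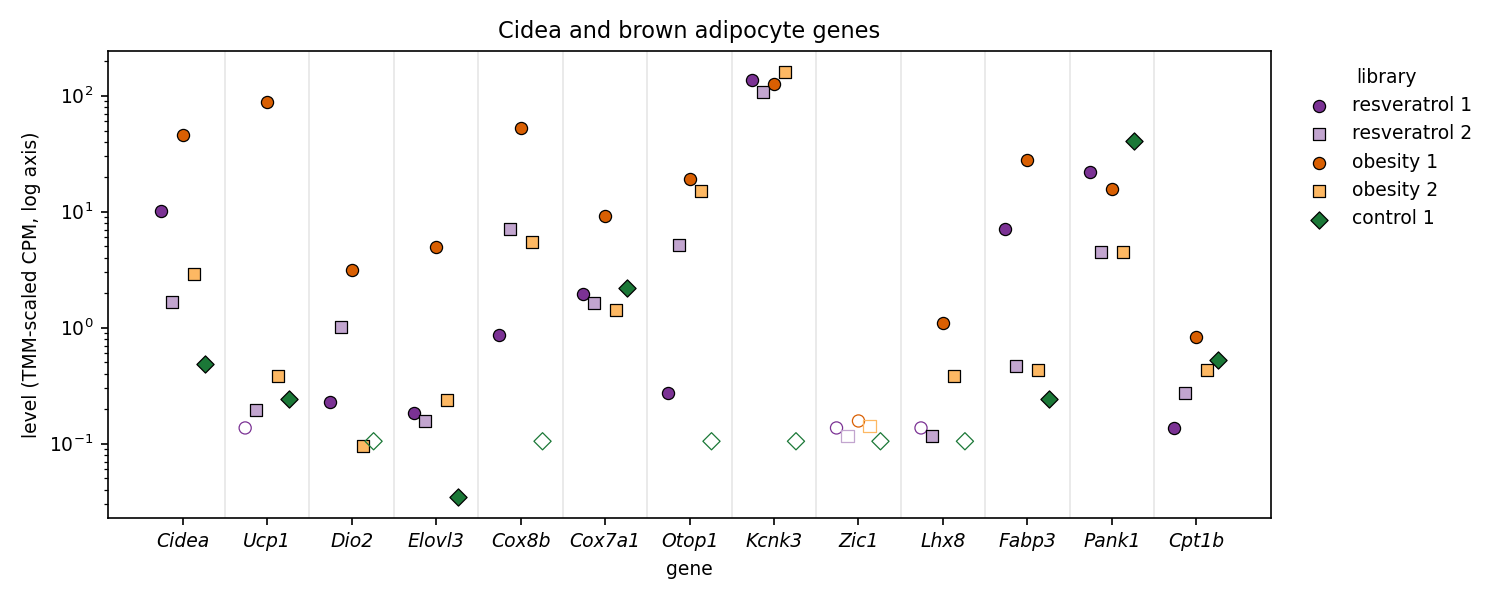
TMM-scaled CPM (log axis) of Cidea and the 12 brown adipocyte markers, with 1 point per library and open symbols, drawn at 3 counts, for a count of 0. Obesity library 1 is the highest for Cidea, Ucp1, Cox8b and Fabp3, and Zic1 is open in all 5 libraries.

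The assembly factors and G0s2 lay between the extremes. Fitm2, which encodes an endoplasmic reticulum protein needed for droplets to bud, had 42.7 and 224 CPM under resveratrol, against 199 and 265 CPM in obesity and 10.1 CPM in the control. Bscl2, the gene for seipin, whose loss causes lipodystrophy in humans, had 88.8 and 352 CPM under resveratrol, against 401 and 417 CPM in obesity and 72.9 CPM in the control. The resveratrol libraries overlapped the obesity libraries for Fitm2 and lay below them for Bscl2. G0s2, the ATGL inhibitor gene, had 69.5 and 313 CPM under resveratrol, against 283 and 257 CPM in obesity and 10.6 CPM in the control, and resveratrol library 2 was its highest library. Exons of Bscl2, Fitm2 and Plin4 share bases with an antisense gene in GENCODE M21, 398 bases with Gng3 for Bscl2, 227 with 2310001K24Rik for Fitm2 and 17 with Hdgfl2 for Plin4. Bscl2 shares 239 more with the same-strand gene AC129217.1. The strand setting of the counting is not given in the sources used here, so reads in these stretches cannot be assigned with certainty.

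Resveratrol was first set against vehicle in mice made obese by diet. All 10 genes had a lower fitted mean with resveratrol, where 45.1% of all tested genes did, and the median log2 difference of the 10 was -0.75, against 0.05 over all genes. At an adjusted p of 0.05 (Benjamini-Hochberg) the quasi-likelihood test of edgeR called 0 of the 10, and 0% of all genes, and the smallest adjusted p was 0.899. At an unadjusted p of 0.05 it called 0 of the 10 and 2.34% of all genes (0.428% lower), and DESeq2 and limma-voom also called 0 of the 10 after adjustment. Plin5 had the smallest unadjusted p of the 10 (0.135 in edgeR). It averaged 6.18 ± 6.23 CPM under resveratrol against 20.0 ± 0.975 CPM in obesity (SD, n = 2 each), and the log2 difference was -1.69 (SE 0.913, edgeR adjusted p = 0.899). Plin2 averaged 543 ± 528 CPM under resveratrol against 1628 ± 144 CPM in obesity, and the log2 difference was -1.58 (SE 0.930, edgeR adjusted p = 0.899). For Plin3 the difference was -0.13 (SE 0.225) and for Plin1 -0.51 (SE 1.13), so the error of Plin1 was far wider. In 4 of the 10 genes, Plin2, Plin3, Plin5 and Bscl2, both resveratrol libraries lay below both obesity libraries, and 16.7% of all tested genes had that order.

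In 9 of the 10 genes, all but Plin3, the resveratrol libraries lay further from each other on the log2 scale than the group means did. Resveratrol library 2 was 8.57 times library 1 for Plin1, 8.28 times for Cidec, 5.97 times for Plin5 and 5.40 times for Plin2, and 0.976 times for Plin3. As a share of the obesity mean, the median of the 10 genes was 20.1% in resveratrol library 1 and 93.6% in resveratrol library 2, beside 24.0% and 115% for the median adipocyte marker. Without resveratrol library 1 the log2 difference was 0.34 for Plin1, 0.19 for Plin4, 0.15 for Cidec and 0.23 for G0s2, all above 0, and it remained below 0 for the other 6 genes, at -0.82 for Plin2 and -0.90 for Plin5. None of the 10 passed in that fit. Without obesity library 1 the difference of Cidea was 1.02. Without resveratrol library 2, so with resveratrol library 1 alone against obesity, 8 of the 10 genes passed in edgeR, all lower, where 9.6% of all genes passed as lower, and Plin3 and Cidea did not. That fit takes the spread of the lone resveratrol library from the obesity pair.

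**Figure D4:**
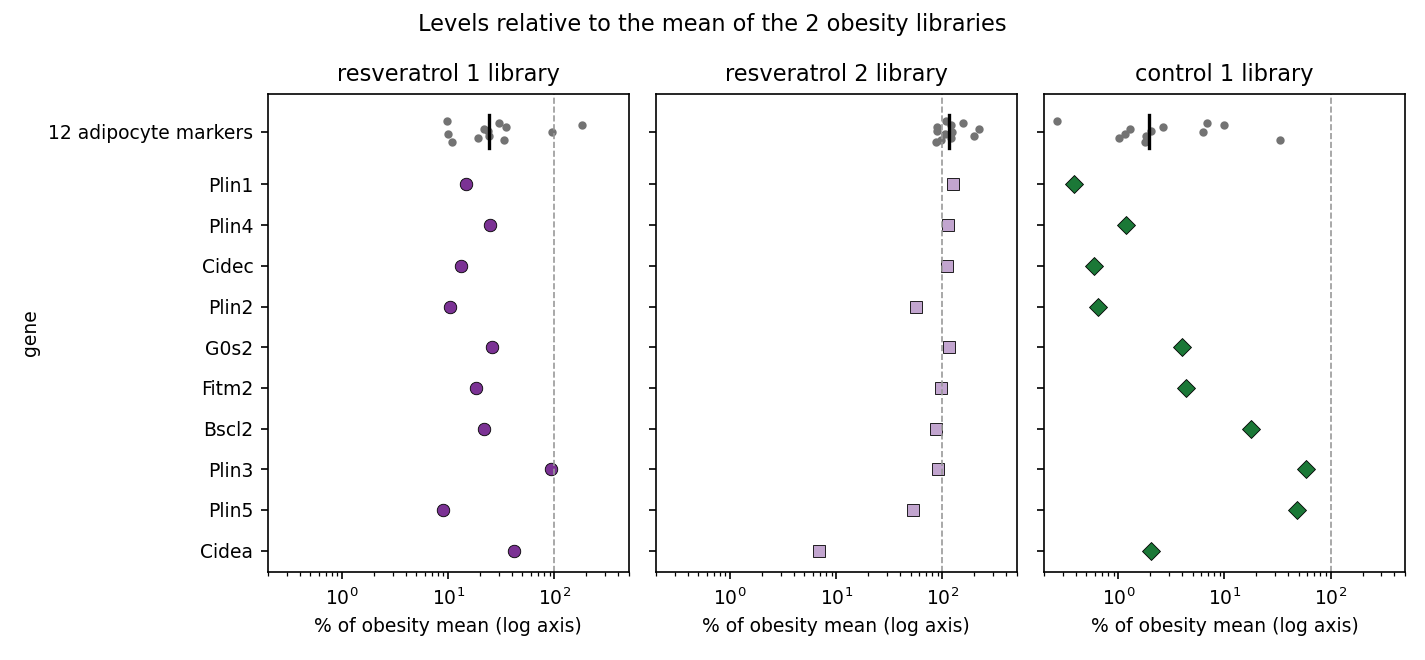
Level of each droplet gene, and of the 12 adipocyte markers (grey points, black bar at their median), as a percentage of the mean of the 2 obesity libraries (log axis), in resveratrol library 1, resveratrol library 2 and the control library. In resveratrol library 2 Plin2, Plin5 and Cidea stand at 56.3%, 53.0% and 6.93% while the other 7 genes stand between 86.2% and 125%, and in resveratrol library 1 Plin3 alone stands near 100%, at 92.7%.

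To set the droplet genes beside fat cell content, the mean log2 CPM of the 12 adipocyte markers was subtracted from the log2 CPM of each gene in each library. Relative to these markers Plin2 differed from its obesity mean by -1.39 and -1.12 in resveratrol libraries 1 and 2, while the obesity libraries differed from each other by 0.49. Plin5 differed by -1.56 and -1.20, with a gap of 0.41 between the obesity libraries. Plin4 differed by -0.11 and -0.08 with a gap of -0.18, and G0s2 by -0.09 and -0.07 with a gap of 0.45, so both stayed within the spread of the obesity pair. In 5 of the 10 genes, Plin2, Plin5, Cidec, Fitm2 and Bscl2, both resveratrol libraries differed in the same direction, downward, by more than the obesity libraries differed from each other. Of all tested genes 2.95% met the same criterion, as did 3 of the 12 adipocyte markers. The marker mean itself differed from its obesity mean by -1.87 in resveratrol library 1 and by 0.29 in resveratrol library 2. A gene with an unchanged CPM therefore stood higher relative to the markers in resveratrol library 1 and could not meet the criterion. The share over all genes is thus low in part by construction, and no conclusion is drawn from it. The markers themselves scattered about their mean, from -1.48 to 2.75 in resveratrol library 1 and from -0.47 to 0.90 in resveratrol library 2. The value of 2.75 was that of Slc2a4, which had 267 CPM in resveratrol library 1, against 118 and 177 CPM in obesity. It raised the marker mean of resveratrol library 1, so each droplet gene stood lower beside that mean. The criterion was not recomputed without Slc2a4. In resveratrol library 2 Plin2 and Plin5 lay well below the lowest marker, Bscl2 (-0.50) lay next to it, and Fitm2 (-0.32) and Cidec lay within the range, while in resveratrol library 1 Plin2 lay within the range and Plin5 just below it. The margin was narrow for Bscl2, at -0.33 in resveratrol library 1 with a gap of 0.25. It was narrow for Cidec too, at -0.15 in resveratrol library 2 with a gap of 0.14, and against the summed markers Cidec stood at -0.01 there. Plin3 stood at 1.76 and -0.43, on opposite sides. These values are log2 differences of levels and carry no test.

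Diet-induced obesity was next set against standard chow, both with vehicle. Both obesity libraries lay above the control library in all 10 genes, an order held by 40.8% of all tested genes, and the median log2 difference was 5.14, against -0.10 over all genes. The difference was 8.03 for Plin1 (SE 2.13), 7.41 for Cidec (SE 2.09), 7.27 for Plin2 (SE 1.65) and 6.40 for Plin4 (SE 1.63). G0s2 had 4.66 (SE 1.22), Fitm2 4.51 (SE 1.32) and Bscl2 2.49 (SE 1.02). Plin5 and Plin3 had the smallest differences, 1.04 (SE 1.14) and 0.78 (SE 0.286). Cidea differed by 5.61 with an SE of 2.56, and averaged 24.1 ± 30.0 CPM in obesity against 0.488 CPM in control. After adjustment the quasi-likelihood test of edgeR called 0 of the 10 (smallest adjusted p 0.182) and 0% of all genes. At an unadjusted p of 0.05 it called 7 of the 10, all higher, and 24.3% of all genes (12.6% higher). After adjustment DESeq2 called 8 of the 10 as higher, where it called 10.8% of all genes as higher, and limma-voom called 0 of the 10.

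The number of edgeR calls differed with the libraries in the fit, and the cause was not tested. With the obesity and control libraries alone 9 of the 10 genes passed, all higher in obesity, where 20.5% of all genes passed as higher. Without resveratrol library 1, 9 of the 10 and 20.3% of all genes passed as higher, and without resveratrol library 2, 9 of the 10 and 19.5% of all genes. Cidea was the gene that did not pass in each of these fits. The control library was the sole lean library, and its adipocyte markers stood at a median of 1.93% of the obesity mean beside 2.98% for the median droplet gene. Diet and the low level of fat tissue transcripts in that library cannot be told apart. Relative to the adipocyte markers Plin3 stood 4.44 higher in control than in obesity on the log2 scale, Plin5 4.19 and Bscl2 2.74 higher. Control minus obesity was -2.75 for Plin1, -2.17 for Cidec and -2.03 for Plin2. The markers themselves scattered from -3.26 (Trarg1) to 3.65 (Adig) in control. Plin1, Cidec, Plin2 and Bscl2 lay within that range, and Plin3 and Plin5 above it. The control library held the highest sum of the epididymis markers, and the part of that tissue in its Plin3, Plin5 and Bscl2 transcripts was not tested.

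Resveratrol against standard chow came last. This comparison shares the resveratrol libraries with the first and the control library with the second. Of the 10 genes 9 had a higher fitted mean with resveratrol, where 51.4% of all tested genes did, and in those 9 both resveratrol libraries lay above the control library, where 37.7% of all genes had that order. The largest log2 differences were 7.52 for Plin1 (SE 2.08) and 6.70 for Cidec (SE 2.02). Plin5 was the exception, with 6.18 ± 6.23 CPM under resveratrol against 9.69 CPM in control, and its log2 difference was -0.65 (SE 1.07). After adjustment edgeR called 0 of the 10 (smallest adjusted p 0.239) and 0% of all genes. At an unadjusted p of 0.05 it called 6 of the 10, all higher, and 18.5% of all genes (10.5% higher), while after adjustment DESeq2 called 6 of the 10 as higher, where it called 8.28% of all genes as higher, and limma-voom called 0 of the 10. Without resveratrol library 1, 7 of the 10 passed as higher, where 18.5% of all genes did, and Plin5 was at 0.15. Without resveratrol library 2, 7 passed as well, where 17.2% of all genes passed in either direction, and Plin5 was among them at -2.42.

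**Figure D5:**
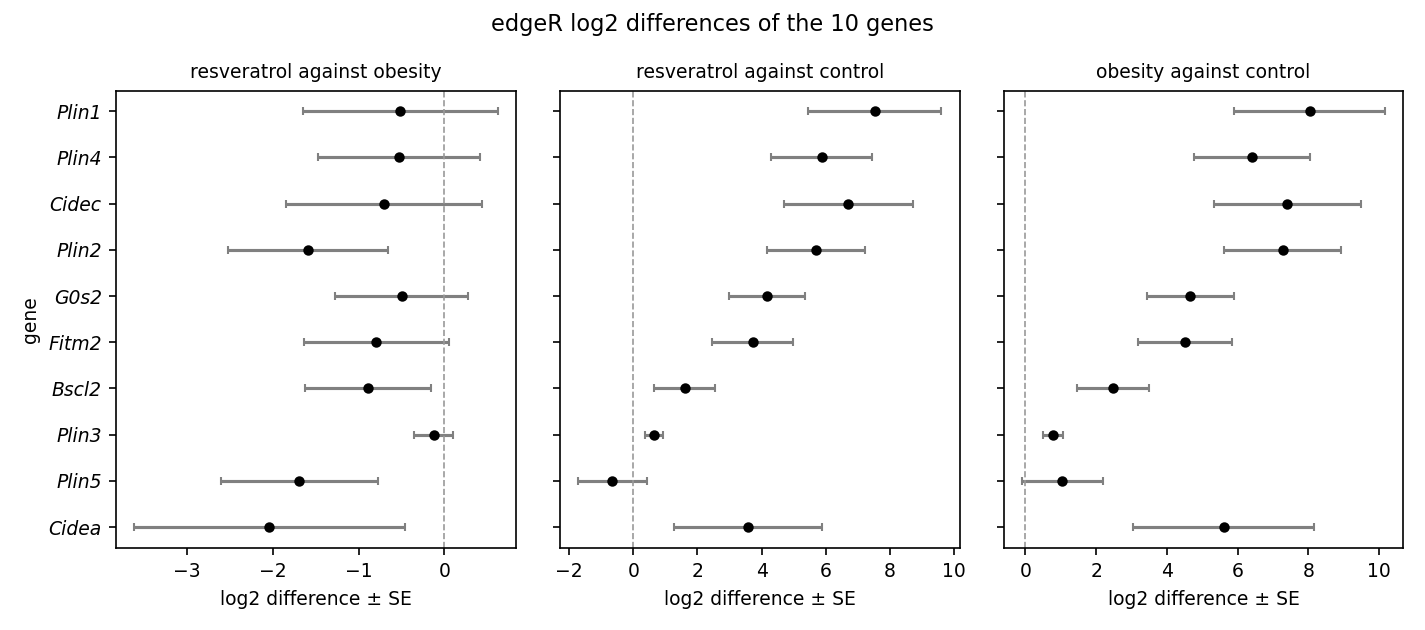
edgeR log2 differences (points) with their SE (bars) for the 10 droplet genes in the comparisons of resveratrol with obesity, resveratrol with control and obesity with control. Against obesity all 10 points lie below 0, 6 of them within 1 SE of it, and against control the differences range up to 7.52 for resveratrol and 8.03 for obesity, both for Plin1.

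Genes that work beside the coat proteins were counted from lists chosen by function. None of their members passed an adjusted p of 0.05 in any comparison with edgeR. Of all 24779 tested genes 11613 were higher in obesity than in control, and 45.1% were lower with resveratrol than in obesity. All 12 adipocyte markers were higher in obesity than in control (median log2 difference 5.70), and 8 were lower with resveratrol than in obesity (median -0.56). Of 9 droplet lipases and their regulators, 8 were lower with resveratrol than in obesity (median log2 difference -0.58), and all 9 were higher in obesity than in control (median 3.68). Abhd5, the gene for CGI-58 that perilipin 1 binds, had 22.8 and 62.4 CPM under resveratrol, against 73.2 and 107 CPM in obesity and 13.6 CPM in the control. Hilpda, which like G0s2 encodes an inhibitor of ATGL, had 7.00 and 23.7 CPM under resveratrol, against 34.5 and 31.3 CPM in obesity and 1.71 CPM in the control. For both, as for Plin2, Plin3, Plin5 and Bscl2, each resveratrol library lay below both obesity libraries, an order held by 16.7% of all tested genes. Lipe, the hormone-sensitive lipase gene, had 512 and 2473 CPM under resveratrol, against 1675 and 2086 CPM in obesity and 30.9 CPM in the control, and its resveratrol libraries lay on both sides of the obesity pair.

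Of 11 tested droplet biogenesis genes, 10 were lower with resveratrol (median -0.64) and 9 were higher in obesity than in control (median 2.78). Agpat2, a phosphatidic acid synthesis gene, had 67.7 and 414 CPM under resveratrol, against 483 and 571 CPM in obesity and 38.8 CPM in the control. Pcyt1a, which encodes the rate-limiting enzyme of phosphatidylcholine synthesis for the droplet surface, had 48.6 and 81.6 CPM under resveratrol, against 77.6 and 94.7 CPM in obesity and 13.7 CPM in the control. Fitm1, the muscle relative of Fitm2, stood at or under 0.681 CPM in each library. Gpat3, a glycerol-3-phosphate acyltransferase gene, had 15.7 and 82.0 CPM under resveratrol, against 92.1 and 92.3 CPM in obesity and 1.43 CPM in the control.

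The other droplet surface proteins were split between both directions. Of 18 tested, 11 were higher and 7 lower in obesity than in control, with a median log2 difference of 0.12, and 12 were lower with resveratrol than in obesity (median -0.10). Aifm2, also known as FSP1, had 157 and 342 CPM under resveratrol, against 333 and 386 CPM in obesity and 10.4 CPM in the control. Nsdhl, a sterol synthesis enzyme gene, stood highest in the control library instead, at 19.4 and 28.5 CPM under resveratrol, 35.7 and 38.8 CPM in obesity and 135 CPM in control. Mettl7a1, which encodes a membrane protein found on droplets, was likewise highest in control, with 100.1 and 175 CPM under resveratrol, 102 and 127 CPM in obesity and 506 CPM in control.

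Among 11 regulators of droplet genes, 9 were higher in obesity than in control (median 1.64) and 8 lower with resveratrol than in obesity (median -0.42). Pparg, the nuclear receptor gene that drives fat cell formation and perilipin expression, had 20.9 and 144 CPM under resveratrol, against 129 and 168 CPM in obesity and 1.64 CPM in the control, so resveratrol library 2 lay within the obesity pair. Esrra, an orphan nuclear receptor gene of oxidative metabolism, varied less, at 79.5 and 81.8 CPM under resveratrol, 94.6 and 91.3 CPM in obesity and 35.3 CPM in control. Nr1h3, the LXR alpha gene, had 22.4 and 142 CPM under resveratrol, against 163 and 159 CPM in obesity and 6.28 CPM in the control.

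Genes with the nearest pattern were found by the root mean square difference of log2 CPM, centred per gene, over the 5 libraries, among 14146 genes with a mean of at least 1 CPM. Nearest to Plin1 were Slc7a10, Cfb and Sfrp5, at distances of 0.12, 0.21 and 0.24 on the log2 scale. Cidec lay 0.33 from Plin1, closer than any other of the 10 genes, and had Npr3 (0.15) and Cd36 (0.16) among its own nearest. Cd36, the fatty acid transporter gene, had 353 and 3111 CPM under resveratrol, against 3171 and 3755 CPM in obesity and 19.8 CPM in the control. The Plin4 neighbours were Car3, Sgcd and Hcar1, at 0.13 to 0.18, and Hcar1 encodes the lactate receptor of fat cells. Plin2 had Ccl9 (0.16), Rgs18 (0.18) and Fam83a (0.21), of which Ccl9, a chemokine gene of myeloid cells, had 55.0 and 285 CPM under resveratrol, against 482 and 450 CPM in obesity and 2.44 CPM in the control. Plin3, the member with the narrowest range, had Rabep1 (0.01), Rab10 (0.02) and Lgals8 (0.02). For Plin5 the nearest were Efr3b (0.17), Cdca7l (0.17) and Fbp2 (0.25). The nearest genes of Cidea were Scnn1g (0.55), Fabp3 (0.76) and Myh6 (0.91). The assembly gene Fitm2 had Cat (0.06), Hcls1 (0.07) and Mrc1 (0.09), while Bscl2 had Klhl5 (0.04) and Phf11d (0.10) among its nearest. Last, G0s2 had Acp5 (0.08), Fli1 (0.11) and Il27ra (0.11). With so few libraries many genes lie close by, and the distances are descriptions. A distance also scales with the range of a gene, so distances of different members, such as Plin3 and Cidea, cannot be compared.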

How the data were processed

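Per the submitters' processing notes, the authors used FastQC and featureCounts and genome build GRCm39. The sources used here do not give the aligner, annotation release or strand setting. Values deposited by the authors are raw counts, whole numbers without normalisation, for 78334 Ensembl identifiers, of which 65.7% were given a symbol. Per the labels' protocols, poly-A libraries were made with a stranded kit and sequenced as paired-end reads of 150 bases.

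Tests used edgeR 4.0.16 under R 4.3.3. After filterByExpr (minimum count 10, minimum total 15) and TMM scaling, all 5 libraries entered a single robust quasi-likelihood model with group as its term. F tests of the 3 comparisons were corrected by Benjamini-Hochberg across 24779 genes, with a threshold of 0.05, which takes the spread of the lone control library to be that of the other groups. The SE is the log2 difference divided by the square root of F. The 10 genes, the marker lists and the related lists were chosen with earlier results of these data known. The named genes are the 10 members, some of the 4 related-list genes with the smallest p in each comparison (picked after their values were seen), the 3 nearest genes per member by centred log2 CPM (prior count 2), and marker genes. Of the nearest genes, 1 for Cidec and 1 for Bscl2 are not reported here. Of 150 list entries, 149 matched an identifier. Alternatives were median-ratio size factors, library totals alone, no filter and a minimum count of 50, DESeq2 1.42.0, limma-voom (limma 3.58.1), a non-robust fit, a fit restricted to the compared groups, a replicate block, and leaving out libraries. Python 3.11.15 with matplotlib 3.10.9 made the figures.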

Additional observations from a re-analysis of the deposited data

How the results depend on the processing

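The edgeR counts of 0 genes called held with median-ratio size factors, library totals alone, a minimum count of 50 and a fit that is not robust, in all 3 comparisons. With no filter on low counts 2575 genes and 1 droplet gene (Plin4) passed in obesity against control, 25 genes and 0 droplet genes in resveratrol against obesity, and 1671 genes and 1 droplet gene (Plin4) in resveratrol against control. DESeq2 called 4529 genes and 8 droplet genes, 224 and 0, and 3083 and 6 in the same order. Limma-voom called 80 genes in resveratrol against control and 0 in the other comparisons, and 0 droplet genes in each. With only the groups compared 9269 genes and 9 droplet genes passed in obesity against control, and 0 in the other comparisons. The cause of these changes was not tested. Leaving out 1 library gave 0 to 9227 genes and 0 to 9 droplet genes in obesity against control, 0 to 4758 and 0 to 8 in resveratrol against obesity, and 0 to 7469 and 0 to 7 in resveratrol against control. In resveratrol against obesity without both the control library and resveratrol library 1, 66 genes and 0 droplet genes passed, and the log2 differences of Plin1, Plin4, Cidec and G0s2 were 0.34, 0.19, 0.15 and 0.22. Leaving out 1 library, or the control library and resveratrol library 1 together, moved the log2 difference in that comparison between -2.76 and 0.34 for Plin1, -1.99 and 0.19 for Plin4, -2.91 and 0.15 for Cidec, -1.95 and 0.23 for G0s2 and -3.84 and 1.02 for Cidea, and in resveratrol against control between -2.42 and 0.15 for Plin5. All 10 genes stayed higher in obesity than in control under every alternative, with Plin1 from 7.16 to 8.36 and Plin3 from 0.66 to 0.82.

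The labels do not say that an equal replicate number marks a shared animal or batch, and the numbers were not taken as pairs. Deviations of resveratrol library 1 and obesity library 1 from their group means correlated at 0.28 across genes, over 2 pairs of libraries. With the replicate block 0 genes and 0 droplet genes passed in each comparison, and the Plin2 difference between resveratrol and obesity was -2.04 with the block. Against the summed adipocyte markers in place of their mean log2, Plin4 stood at -0.39 and 0.06 and Cidec at -1.32 and -0.01 in the resveratrol libraries. With a prior count of 0.5, 1 of the 3 nearest genes of Plin1 and of Plin4 stayed the same. Depth limited Cidea and Plin5, whose lowest counts were 14 and 39.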
